A study of Arabidopsis thaliana with 30 samples.

Results

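Mitochondrion-encoded genes are the genes carried by the mitochondrial genome of Arabidopsis thaliana. They were taken from the ATH1 GeneChip as the probe sets that the annotation assigns to 1 gene of that genome, with the probe set of highest mean signal kept for each gene. This gave 16 genes out of 32 mitochondrial protein genes in the gene table, from 23 such probe sets among 22810 on the chip. The 16 genes comprised 8 subunits of complex I (nad1, nad2, nad4, nad4L, nad5, nad6, nad7 and nad9), 2 subunits of complex IV (cox1 and cox2), 4 cytochrome c maturation genes (ccmB, ccmFC, ccmFN1 and ccmFN2), mttB and matR. The older AtGenome1 chip of the series carried 0 such probe sets, and its 10 arrays were not used.

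The 20 ATH1 arrays formed 10 groups of 2 biological replicates of ecotype Ws-0, all grown under continuous light. The lec1-1 mutant, which carries an allele of the embryo regulator gene LEAFY COTYLEDON1, contributed 24-hour fertilized seed, globular seed, cotyledon seed, mature green seed and post-mature green seed. Wild type contributed the same kinds of seed except the globular one, and also seedlings at 3 days after imbibition. No lec1-1 seedling was sampled, so seedlings were set against seed in wild type alone. Whole seeds hold embryo, endosperm and seed coat together, and a change in the number of cells of a type or of mitochondria cannot be told apart from a change in RNA per cell.

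Mitochondria keep a small genome that encodes a minority of the subunits of the respiratory chain, while most subunits of the same complexes are encoded in the nucleus and imported. Complex I oxidizes NADH and passes electrons to ubiquinone, and complex IV, cytochrome c oxidase, passes electrons to oxygen. Plants also keep in the mitochondrial genome several genes for attaching haem to cytochromes of the c type. In plants a few transcripts, nad1, nad2 and nad5 among them, are joined from separately transcribed pieces by trans-splicing. Seeds build reserves during maturation and then dry, and seedlings draw on mitochondrial respiration while those reserves are used.

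The deposited values are signals on a linear scale without a unit, brought by the authors to a common mean on each array. Array medians ranged over 176.8 to 217.4. A signal of 100, reached by 58.5% to 66.4% of the probe sets of an array, was used as the floor below which a level is only bounded. Summed signals of the seed reserve markers, 6 genes, were 485.6 to 585 in seedlings and 230916 to 248061 in post-mature green wild-type seed. The 3 green seedling markers summed to 36122.8 to 38850.2 in seedlings and 1782.2 to 2317.8 in that seed. Between these groups both sums thus differed as the labels would have it. Of the green markers, LHCB4.3 was not highest in seedlings, averaging 2522 there and 4122 in mature green wild-type seed. Of the silique wall markers only ALC had a named probe set. It read 7301.2 to 8134.7 in lec1-1 and 6179.6 to 7730.5 in wild-type 24-hour seed, against 133.6 to 471.1 in mature green and post-mature green seed of both genotypes. The mutated gene is not analysed here, which leaves the genotype labels without that check.

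Of the 16 genes, 15 passed the filter on low values, a signal of 100 on at least 2 arrays. The maturase gene matR, whose protein takes part in intron splicing, reached 100 on 1 array and was not tested. Its signal was 154.8 and 15.5 in post-mature green wild-type seed and 86.5 or less on every other array. Others passed narrowly: ccmFN2 and nad7 reached 100 on 2 arrays each, single arrays of different groups, and nad2 on 3. Without either of those arrays ccmFN2 or nad7 would not have entered, and neither gene was called in any contrast. Among the genes called, only nad2 needed its high group to enter. That group was post-mature green wild-type seed, where it read 138.0 and 144.9. The probe sets of matR, mttB, ccmFC, nad5 and nad6 carry the suffix s_at, which marks probes that can match several transcripts. The nuclear genome of Arabidopsis also holds inserted copies of mitochondrial DNA, and RNA from such copies cannot be told apart from mitochondrial RNA by these probes.

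Over the 10 groups the mitochondrial genes shared a broad outline: intermediate signal at 24 hours, low signal at the cotyledon stage, high signal in the mature green and post-mature green stages, and low signal in seedlings. In lec1-1 the mean signal at the cotyledon stage was below both the 24-hour and the mature green mean for 14 of 16 genes. In wild type this held for 11 of 16. The group mean was lowest in seedlings for 9 of the 15 tested genes. It was highest in post-mature green wild-type seed for 5 of them, in post-mature green lec1-1 seed for 4, in mature green wild-type seed for 3, in mature green lec1-1 seed for 2 and in globular lec1-1 seed for 1.

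Summed over the 16 genes, lec1-1 signals were 3466 and 3498 at 24 hours, 4131 and 2296 at the globular stage, 2225 and 2806 at the cotyledon stage, 8571 and 5188 at the mature green stage, and 9228 and 6635 at the post-mature green stage. In wild type the sums were 3733 and 3022 at 24 hours, 2585 and 2769 at the cotyledon stage, 6399 and 5475 at the mature green stage, 7670 and 6748 at the post-mature green stage, and 1467 and 1539 in seedlings. Seedlings lay below every seed array. At the globular stage the first array exceeded the second for 13 of 16 genes, by a median of 0.47 log2, and the mean of that group rests on this pair. As a description over the 10 group means, Pearson's r between a gene and the mean of the other tested genes was 0.963 for cox2, 0.94 for nad9, 0.938 for cox1 and 0.906 for nad4L. These 4 genes had the profiles most like the rest. The value was lowest for nad7, at 0.359. All points share the same arrays and scaling, and no test was made of them.

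**Figure D1:**
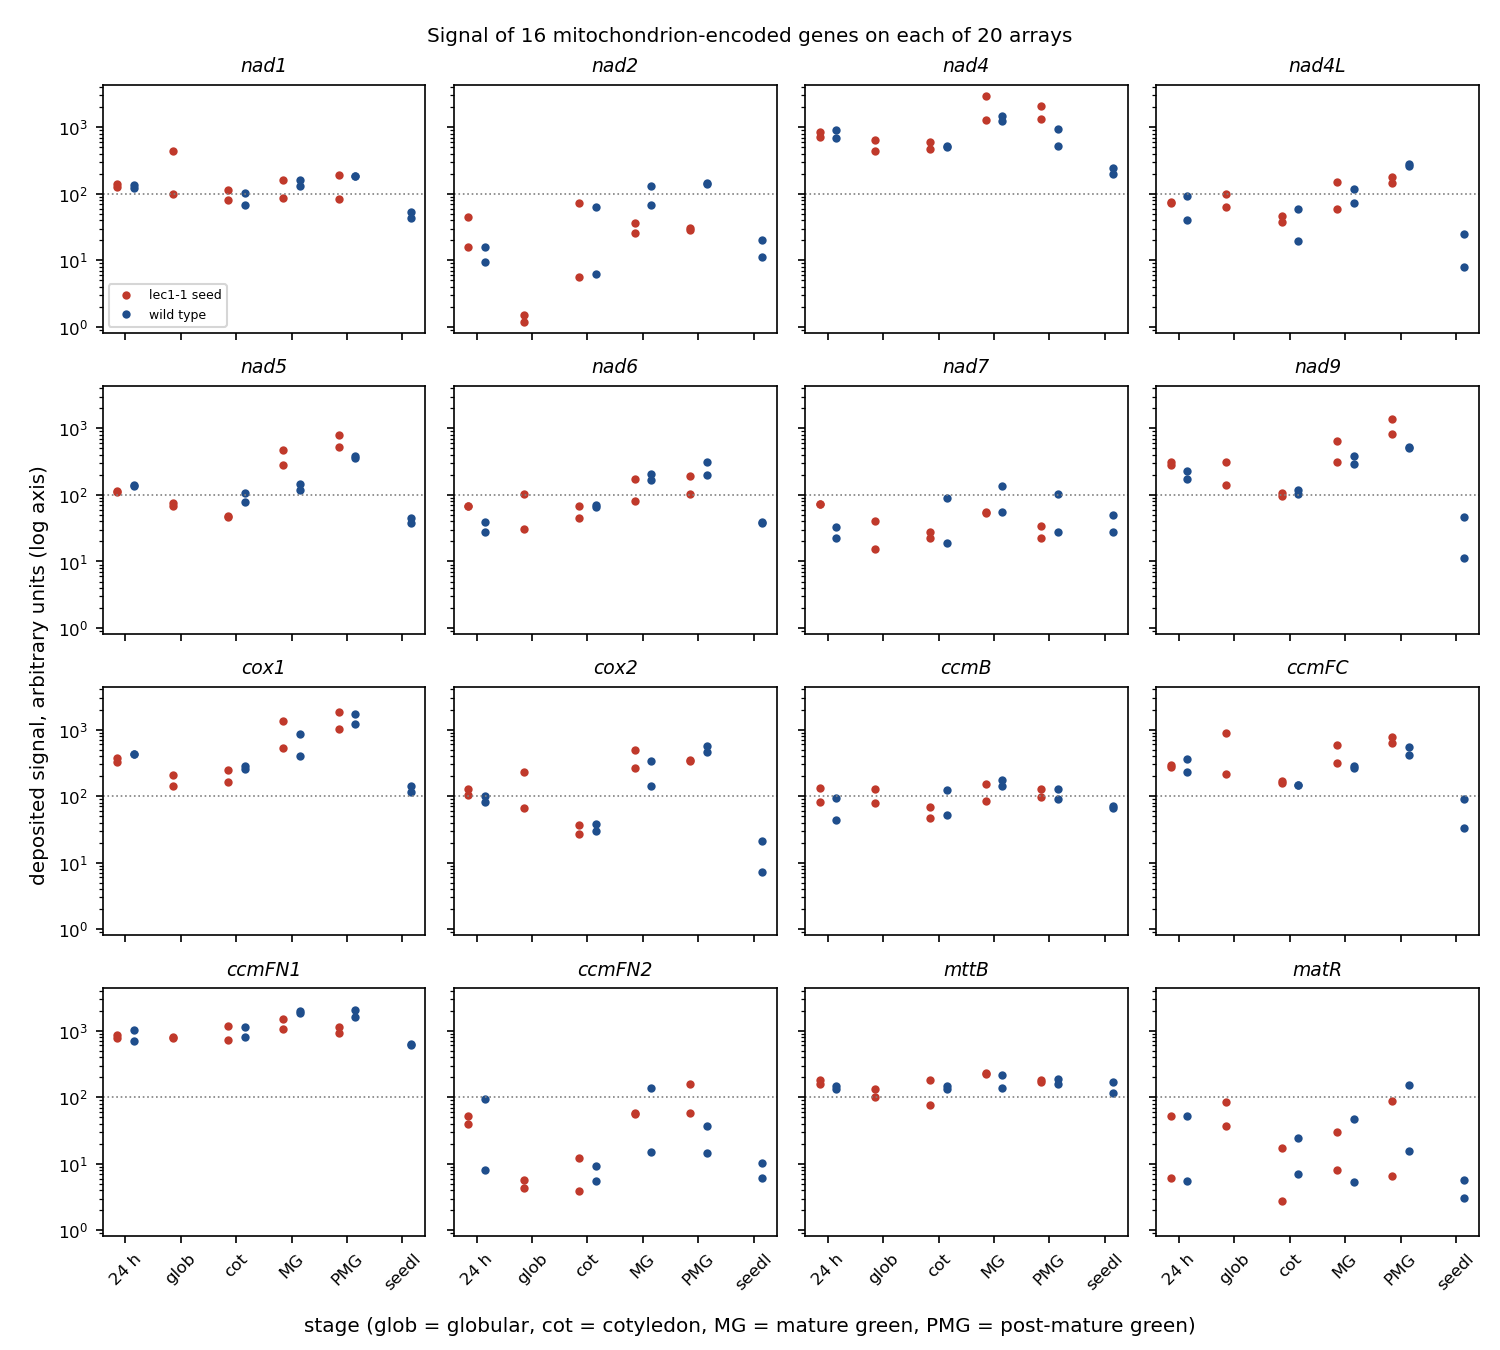
Deposited signal (arbitrary units, log axis) of each of the 16 mitochondrion-encoded genes on every array, by stage, with lec1-1 in red left of wild type in blue. Each point is 1 array and the dotted line marks a signal of 100. Most panels dip at the cotyledon stage and are high in the 2 late seed stages, and seedlings lie low, as for cox1 at 115.0 and 140.9.

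The stage tests used the moderated F test of limma, adjusted by Benjamini-Hochberg over 18459 probe sets. Among the wild-type seed stages 10 of 15 genes varied, where 66.9% of all probe sets did. Among the 5 lec1-1 stages 6 of 15 varied, against 60.8% of all probe sets. The count in wild type is thus close to the background and that in lec1-1 below it, so variation over seed stages as such does not set these genes apart.

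Seedlings carried less mitochondrial transcript signal than seed. Against the mean of the 4 wild-type seed stages, 10 of 15 genes were lower in seedlings and 0 were higher in limma's test at an adjusted p of 0.05, with a median log2 difference of -1.004. Among all probe sets 34.1% were lower and 23.6% higher, with a median of -0.21. By role, 6 of 8 complex I genes, both complex IV genes and 2 of 4 cytochrome c maturation genes were lower. The labels state a lot for neither seedling array, and for every wild-type seed array except the second post-mature green one. Whether a lot is stated thus largely coincides with stage in this comparison, and the lots of the other arrays are not given.

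For nad9, which encodes a peripheral complex I subunit, seedling signals were 11.1 and 45.9. The wild-type seed signals were 225.5 and 173.5 at 24 hours, 117.2 and 104.4 at the cotyledon stage, 381.4 and 295.8 at the mature green stage, and 527.5 and 508.2 at the post-mature green stage. Both seedling arrays lay below all 8 seed arrays, and nad9 was at least 2.48-fold lower in seedlings (adjusted p = 3.88e-06, limma).

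The membrane subunit gene nad4 read 247.9 and 200.3 in seedlings. Wild-type seed gave 909.4 and 684.3, 506.8 and 528.0, 1466.8 and 1222.0, and 945.7 and 514.4 in the same stage order. The groups did not overlap, and the log2 difference was -1.62 ± 0.26 (SE, n = 2 seedling arrays against 8 seed arrays, adjusted p = 2.15e-05, limma).

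The catalytic subunit of cytochrome c oxidase, cox1, read 115.0 and 140.9 in seedlings. Wild-type seed gave 424.6 and 434.8, 285.7 and 256.1, 868.0 and 393.7, and 1718.1 and 1214.6 in that order. The difference was -1.80 ± 0.29 log2 (SE, adjusted p = 2.79e-05, limma), with no overlap between seedlings and seed.

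Seedlings were also set against the latest seed stage alone. Between seedlings and post-mature green wild-type seed, 11 of 15 genes were lower in seedlings and 0 higher, with a median log2 difference of -1.54. Of all probe sets 32.5% were lower and 28.1% higher, and the median was -0.15. The 11 comprised 7 of 8 complex I genes (all but nad7), cox1, cox2, ccmFC and ccmFN1. One of them, nad2, passed the filter on low values only through its signals in post-mature green wild-type seed, so it had to differ, and 10 remain without it. Groups did not overlap for 13 of the 15 tested genes, all 13 lower in seedlings, against 43.6% of all probe sets lower without overlap. These 13 include nad2, and also ccmFN2, whose signals lay below the floor on every array of both groups. The median of -1.54 is the value of nad2 itself.

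cox1 fell by 3.07 ± 0.37 on the log2 scale (SE, n = 2 arrays per group, adjusted p = 6.36e-07, limma), with 115.0 and 140.9 in seedlings against 1718.1 and 1214.6 in post-mature green seed. Its partner cox2, the subunit that takes electrons from cytochrome c, read 21.2 and 7.3 in seedlings against 556.9 and 457.7 in seed. Both seedling arrays were under the floor, and cox2 was at least 5.05-fold lower (adjusted p = 1.02e-06, limma). The corresponding bound for nad9 was at least 5.18-fold lower (adjusted p = 6.12e-07, limma).

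Other complex I genes followed in the same direction. Signals of nad5, a membrane subunit of the proton-pumping arm, were 37.7 and 44.5 in seedlings against 359.2 and 383.6 in post-mature green seed, at least 3.71-fold lower. nad4L, a small membrane subunit, read 24.6 and 8.0 against 284.9 and 257.6, at least 2.71-fold lower, and nad6 read 38.4 and 38.9 against 313.4 and 197.3, at least 2.49-fold lower. For ccmFC, one of the haem lyase components, seedling signals were 32.9 and 90.6 against 541.6 and 410.9, at least 4.72-fold lower. ccmFN1, another haem lyase component, was above the floor on every array. It read 638.4 and 609.0 in seedlings against 1598.7 and 2062.5 in post-mature green seed, a log2 difference of -1.47 ± 0.24 (adjusted p = 2.36e-05, limma).

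The other 4 tested genes did not pass in this contrast. mttB, which encodes a protein related to the twin-arginine transporters of bacteria, read 116.8 and 167.9 in seedlings and 155.8 and 186.7 in post-mature green seed. Its log2 difference was -0.21 ± 0.29, and its whole range over 20 arrays was 77.4 to 233.0. The differences were -0.41 for ccmB, a transporter subunit of the maturation pathway, -0.36 for ccmFN2 and -0.30 for nad7. These last 3 genes lay near or below the floor in both groups.

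In the nuclear lists of complex I, complex IV and the other respiratory complexes, more genes passed as higher in seedlings than as lower. Of all probe sets 28.1% were higher and 32.5% lower. In seedlings against post-mature green wild-type seed, 17 of 25 measured nuclear complex I genes were higher and 2 lower, with a median log2 difference of 0.72. For complex III and cytochrome c the counts were 9 higher and 2 lower of 12, for complex IV 4 higher and 1 lower of 8, for complex II 2 higher of 3, and for ATP synthase 4 higher of 5. As examples, the complex I list gene AT4G02580 averaged 4199 in seedlings and 1326 in seed, a log2 difference of 1.63 (adjusted p = 2.57e-07, limma). The complex IV list gene AT1G80230 averaged 1641 in seedlings and 425.8 in seed, a difference of 1.83 (adjusted p = 1.09e-07, limma). The lists hold only the genes that had a named probe set, and the difference between them and the mitochondrial genes is given by these counts, not by a test.

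Short nuclear lists for organelle gene expression also had lower members. Both measured genes for mitochondrial DNA maintenance and transcription were lower in seedlings than in post-mature green seed. AT5G15700 averaged 15.2 in seedlings and 204.1 in seed, at least 2.04-fold lower (adjusted p = 0.000375, limma). OSB1, which binds single-stranded mitochondrial DNA, averaged 200.9 in seedlings and 356.9 in seed (-0.69, adjusted p = 0.0376, limma). Of 6 genes for RNA splicing, editing and turnover, 2 were lower and 0 higher, a share close to the 32.5% of all probe sets that were lower. Of 3 mitochondrial ribosome genes, 2 were higher and 0 lower.

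The genes of the other organelle differed in direction. Of 69 plastid-encoded genes, 43 were higher in seedlings and 3 lower against post-mature green wild-type seed, with a median log2 difference of 1.23. Against the mean of the wild-type seed stages 42 were higher and 2 lower. A further 12 probe sets were shared between a mitochondrial gene and a second gene, for 11 of them a nuclear gene, and these were kept apart. Of the 11 that were tested, 5 were lower and 0 higher in seedlings than in post-mature green seed. Among all probe sets 32.5% were lower and 28.1% higher. One of the 5 was the probe set of atp1, the alpha subunit of ATP synthase. It read 218.8 and 162.4 in seedlings against 1220.7 and 634.3 in seed (log2 difference -1.96, adjusted p = 4.52e-05, limma).

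**Figure D2:**
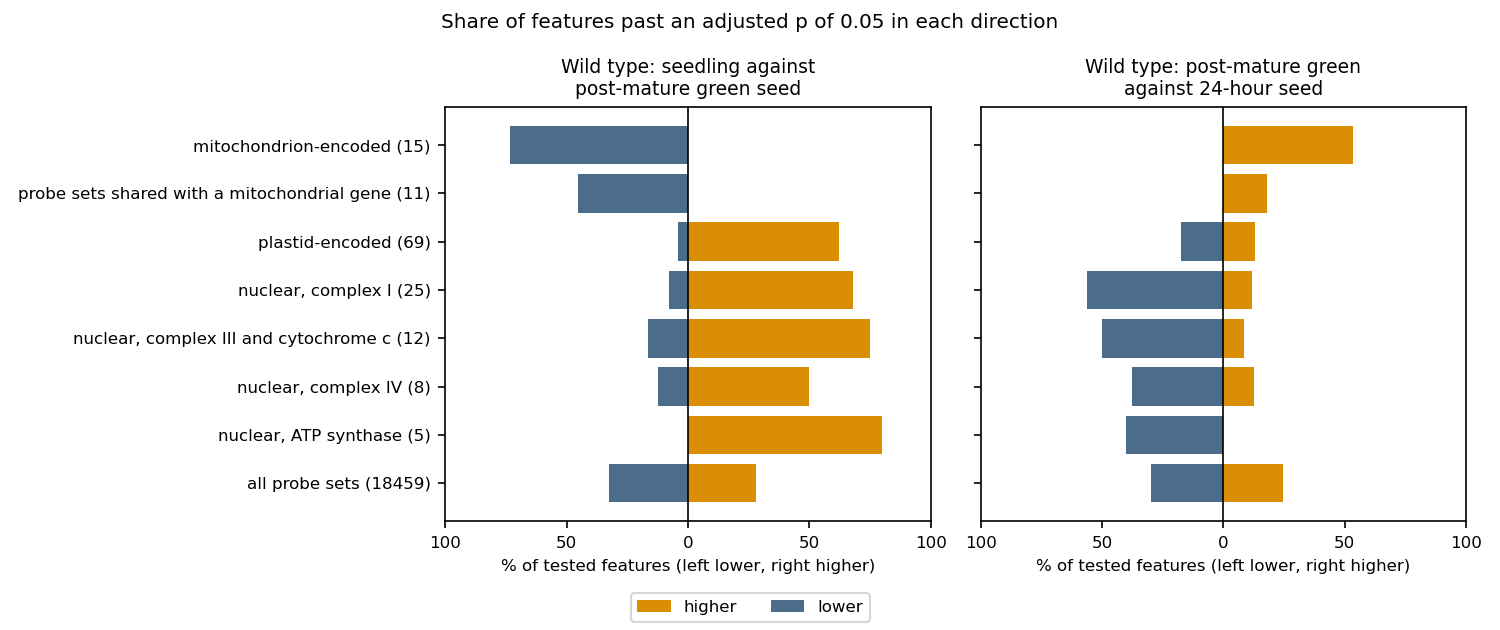
Share of tested features past an adjusted p of 0.05 in limma, lower to the left and higher to the right, for seedling against post-mature green seed and for post-mature green against 24-hour seed, both wild type, with the number tested in brackets. The mitochondrion-encoded genes, 11 of 15 lower in seedlings and 8 of 15 higher in post-mature green seed, point one way in each panel. Both counts include nad2, which passed the filter on low values only through post-mature green wild-type seed. In each of the 4 nuclear lists more genes passed in the opposite direction.

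Within wild-type seed development, mitochondrial genes were higher late than early. Between post-mature green and 24-hour seed, 8 of 15 were higher and 0 lower, with a median log2 difference of 1.06. Of all probe sets 24.7% were higher and 29.9% lower, with a median of -0.02. The 8 were nad2, nad4L, nad5, nad6, nad9, cox1, cox2 and ccmFN1, or 7 without nad2, which passed the filter only through the later of these groups.

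nad6, a membrane subunit of complex I, read 313.4 and 197.3 in post-mature green seed against 38.6 and 27.3 at 24 hours, at least 2.49-fold higher (adjusted p = 0.000215, limma). cox2 read 556.9 and 457.7 against 81.0 and 100.4, a log2 difference of 1.98 ± 0.39 (adjusted p = 0.000228, limma). ccmFN1 read 1598.7 and 2062.5 against 1029.9 and 696.2, a difference of 1.06 ± 0.24 (adjusted p = 0.000827, limma). In each case both late arrays lay above both early ones. nad4 differed from these, with 945.7 and 514.4 late against 909.4 and 684.3 at 24 hours (-0.16 ± 0.32, adjusted p = 0.696, limma). It was higher in between, with 1466.8 and 1222.0 at the mature green stage.

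The largest negative value was that of ccmFN2, at -0.29 ± 0.48 (adjusted p = 0.626, limma), with 36.4 and 14.4 late against 8.0 and 94.4 at 24 hours. All 4 values were below the floor. The nuclear complex I list ran the other way here too, with 14 of 25 lower and 3 higher in post-mature green seed, and AT4G02580 averaged 1326 there against 3598 at 24 hours (-1.41, adjusted p = 2.12e-06, limma). In the list for complex III and cytochrome c, 6 of 12 were lower and 1 was higher. That 1 was the cytochrome c gene CYTC-2, at 1592 in post-mature green and 264.4 in 24-hour seed (2.38, adjusted p = 5.32e-08, limma). AT5G15700 of the transcription list averaged 204.1 late and 21.4 early, at least 2.04-fold higher late (adjusted p = 0.000827, limma). OSB1, the other gene of that list, did not pass. Of 6 genes for RNA splicing, editing and turnover, 0 were higher and 1 lower. Of 3 mitochondrial ribosome genes, 1 was higher and 2 lower. Among all probe sets 24.7% were higher and 29.9% lower. The silique wall marker ALC was far higher at 24 hours than late, as given above, and its part in these early-to-late differences was not tested.

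In lec1-1 seed the same stage comparison gave 6 genes higher in post-mature green than in 24-hour seed and 0 lower, with a median log2 difference of 0.70. Of all probe sets 18% were higher and 20% lower. The 6 were nad4, nad5, nad9, cox1, cox2 and ccmFC, of which 4 (nad5, nad9, cox1 and cox2) were also among the 8 in wild type. Fewer genes passed with any single array of this comparison left out. The first post-mature green lec1-1 array was the brighter one for 13 of the 16 genes.

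nad5 read 802.4 and 521.4 in post-mature green lec1-1 seed against 115.3 and 109.3 in 24-hour lec1-1 seed, a log2 difference of 2.10 ± 0.28 (SE, n = 2 per group, adjusted p = 6.41e-06, limma). cox1 read 1828.2 and 1030.2 against 322.0 and 370.5 (1.85 ± 0.37, adjusted p = 0.000501, limma). nad9 read 1406.5 and 811.7 against 282.4 and 315.1 (1.69 ± 0.34, adjusted p = 0.00065, limma). For these 3 genes both late arrays exceeded both early ones. nad7, which encodes a core complex I subunit, read 34.3 and 22.4 late against 74.2 and 72.9 early, all below the floor (-0.66 ± 0.41, adjusted p = 0.219, limma).

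Of 69 plastid genes, 59 were higher and 0 lower in post-mature green than in 24-hour lec1-1 seed, against 9 higher and 12 lower in wild type. Of the 11 tested shared probe sets, 6 were higher in lec1-1 and 2 in wild type. Among all probe sets 18% were higher in lec1-1 and 24.7% in wild type. The nuclear complex I list gave 7 higher and 0 lower of 25 in lec1-1, where wild type had 3 higher and 14 lower. The difference between the genotypes in these counts was not tested as such.

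**Figure D3:**
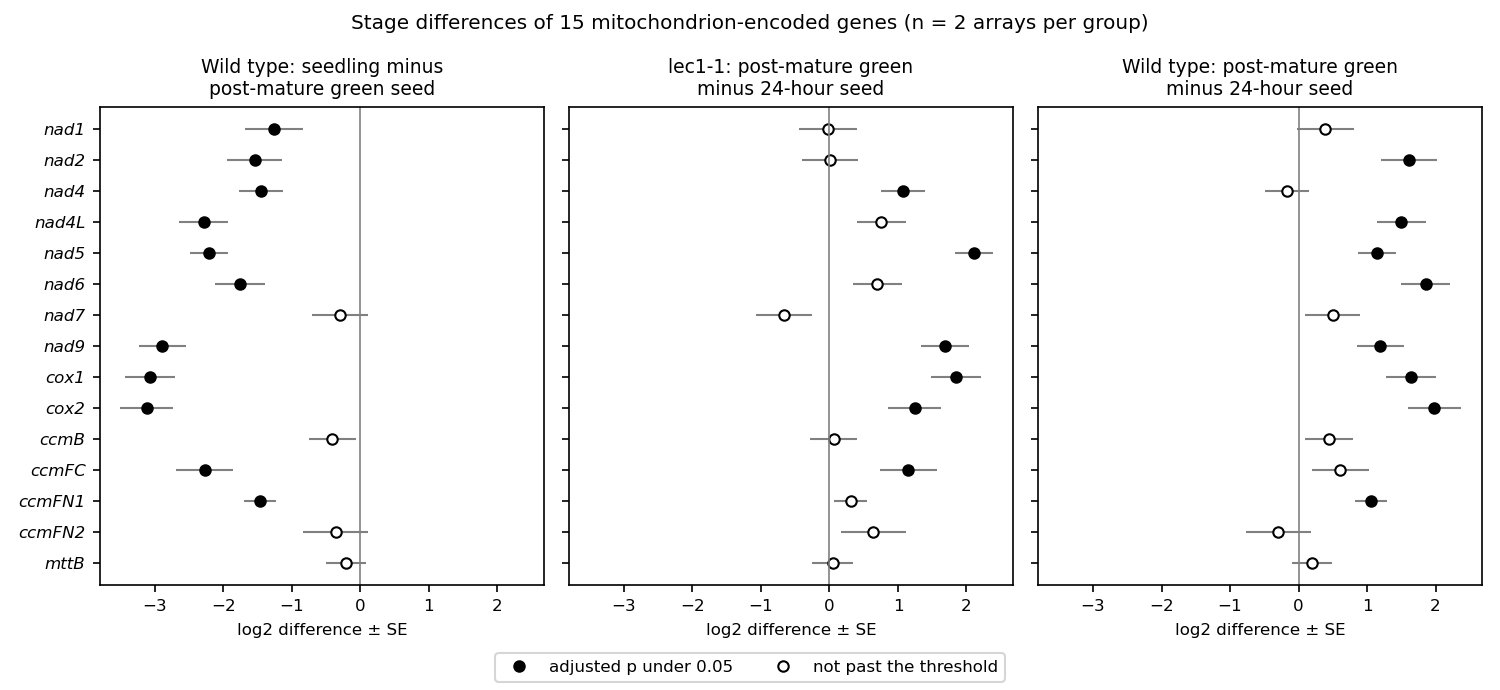
log2 difference with its standard error (n = 2 arrays per group) for 15 mitochondrion-encoded genes, in wild-type seedlings against post-mature green seed, and in post-mature green against 24-hour seed of lec1-1 and of wild type. Filled points have an adjusted p under 0.05 in limma. All 15 points lie below 0 in the first panel, and cox1, cox2, nad5 and nad9 are filled in all 3 panels.

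By genotype, none of these genes passed in early seed. At 24 hours 0 of 15 mitochondrial genes passed limma's test between lec1-1 and wild type, where 0.119% of all probe sets did. At the cotyledon stage 0 of 15 passed, against 0.71% of all probe sets. At an unadjusted p under 0.05 the counts were also 0 at both stages. The largest values at 24 hours were 0.68 ± 0.41 for nad7 (74.2 and 72.9 in lec1-1, 32.7 and 22.3 in wild type) and -0.28 ± 0.37 for cox1 (322.0 and 370.5 in lec1-1, 424.6 and 434.8 in wild type). At the cotyledon stage they were -0.54 ± 0.28 for nad5 (48.2 and 46.0 in lec1-1, 78.5 and 105.3 in wild type) and 0.12 ± 0.41 for ccmFC (169.5 and 160.0 in lec1-1, 149.1 and 145.3 in wild type). With 2 arrays per group, differences of this size were not detectable, and equality is not shown.

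At the mature green stage 1 of 15 genes was higher in lec1-1 and 0 were lower, against 15.7% of all probe sets higher and 13% lower. That gene was nad5, with 472.0 and 280.0 in lec1-1 against 147.6 and 118.1 in wild type. The log2 difference was 1.19 ± 0.28 (adjusted p = 0.00317, limma), and the groups did not overlap. On the negative side, nad2, a membrane subunit of complex I, read 35.8 and 25.9 in lec1-1 against 67.1 and 128.7 in wild type. It did not pass (-0.84 ± 0.41, adjusted p = 0.134, limma), and only 1 of these values was above the floor. ccmFN1 read 1063.7 and 1494.2 in lec1-1 against 1873.9 and 1966.5 in wild type and did not pass either (-0.59 ± 0.24, adjusted p = 0.0703, limma). Without the first mature green lec1-1 array nad5 no longer passed (0.86, adjusted p = 0.0647, limma), and without the second 4 genes passed, 3 higher and 1 lower. Over 13 alternatives the difference of nad5 was 0.76 to 1.52, with an adjusted p of 0.000329 to 0.132, and 9 of them passed. The first array was brighter than its replicate for 12 of 16 mitochondrial genes, by a median of 0.66 log2, where the median over all probe sets was 0.02. A lot is stated for both wild-type arrays of that stage and for neither lec1-1 array. Within the stage the stating of a lot thus cannot be told apart from genotype. The same holds at the cotyledon stage. A covariate for whether a lot is stated was added to the fit over 20 arrays. With it nad5 differed by 1.17 and no longer passed (adjusted p = 0.0544, limma).

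At the post-mature green stage 3 genes were higher and 2 lower in lec1-1, against 23.7% of all probe sets higher and 20.5% lower. The mitochondrial genes were thus called no more often than probe sets in general, and their median difference was -0.07. The 3 higher genes, nad4, nad5 and nad9, all encode complex I subunits. The 2 lower were ccmFN1 and nad2, or ccmFN1 alone without nad2, which passed the filter only through its signals in post-mature green wild-type seed. nad2 encodes a complex I subunit too. Of the 8 tested complex I genes, 3 had a positive and 5 a negative difference. Among those 5 only nad2 passed, and complex I was not tested as a set.

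nad4 read 2078.4 and 1349.4 in lec1-1 against 945.7 and 514.4 in wild type, a log2 difference of 1.20 ± 0.32 (adjusted p = 0.0052, limma). nad9 read 1406.5 and 811.7 against 527.5 and 508.2 (0.98 ± 0.34, adjusted p = 0.0269, limma). nad5 read 802.4 and 521.4 against 359.2 and 383.6 (0.73 ± 0.28, adjusted p = 0.041, limma). For each of these 3 genes both lec1-1 arrays lay above both wild-type arrays.

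In the other direction, ccmFN1 read 933.7 and 1134.3 in lec1-1 against 1598.7 and 2062.5 in wild type (-0.79 ± 0.24, adjusted p = 0.0105, limma). nad2 read 31.0 and 28.1 in lec1-1 against 138.0 and 144.9 in wild type, at least 1.41-fold lower, given as a description only. cox1 was nearly level, with 1828.2 and 1030.2 in lec1-1 against 1718.1 and 1214.6 in wild type (-0.07 ± 0.37, adjusted p = 0.899, limma).

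With single arrays left out fewer genes passed: 0 of 15 without the first post-mature green lec1-1 array, 0 without the second wild-type array and 2 without the first wild-type array, but 5 without the second lec1-1 array. In these fits the lone array left in a group is assumed to vary like the other groups, and its standard error is larger. Over 13 alternatives the differences kept their direction, at 0.79 to 1.61 for nad4 (11 passed), 0.60 to 1.36 for nad9 (8 passed), 0.44 to 1.02 for nad5 (3 passed) and -0.97 to -0.61 for ccmFN1 (11 passed). The first post-mature green lec1-1 array exceeded its replicate for 13 of 16 genes, by a median of 0.26 log2.

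The other lists gave these counts at the same stages, and the difference between lists was not tested. Of the 69 plastid genes 31 were higher in lec1-1 at the mature green stage and 56 at the post-mature green stage, and 0 were lower at either. Of 25 nuclear complex I genes, the mature green stage had 10 higher and 0 lower, and the post-mature green stage had 12 higher and 1 lower. An example is AT5G18800, which averaged 2274 in lec1-1 and 763.6 in wild type at the post-mature green stage (1.52, adjusted p = 1.6e-06, limma). Of 6 genes for mitochondrial RNA splicing, editing and turnover, 0 passed at either stage. Of 2 for DNA maintenance and transcription, 1 was higher at the mature green stage and 0 passed at the post-mature green stage.

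Markers of other tissues moved with genotype as well. The 6 seed reserve markers were lower in lec1-1 at both stages, with median log2 differences of -1.89 and -1.91. The silique wall marker ALC was higher in lec1-1, with 347.1 to 471.1 against 179.3 to 190.6 in wild type at the mature green stage (0.95, adjusted p = 0.000256, limma) and 392.9 to 402.6 against 133.6 to 146.5 at the post-mature green stage (1.24, adjusted p = 8.22e-06, limma). The 3 green seedling markers were all lower in lec1-1 at the mature green stage, with sums of 1758.9 to 2248.2 against 8297.8 to 13558.9 in wild type. At the post-mature green stage 2 were higher and 1 lower, with sums of 2473 to 3227.5 in lec1-1 against 1782.2 to 2317.8 in wild type. The part of these markers' tissues in the genotype differences was not tested.

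Of all probe sets 23.7% were higher in lec1-1 at the post-mature green stage and 20.5% lower. The 11 tested shared probe sets were called no more often, with 2 higher and 0 lower. One covers rps3 and rpl16, neighbouring genes for ribosomal proteins that are both mitochondrial. It read 1090.4 and 1062.2 in lec1-1 against 417.7 and 310.2 in wild type (1.46, adjusted p = 0.00151, limma). The other, that of the ribosomal protein gene rps7, read 283 and 146.9 in lec1-1 against 9.2 and 120.7 in wild type (1.35, adjusted p = 0.0138, limma).

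**Figure D4:**
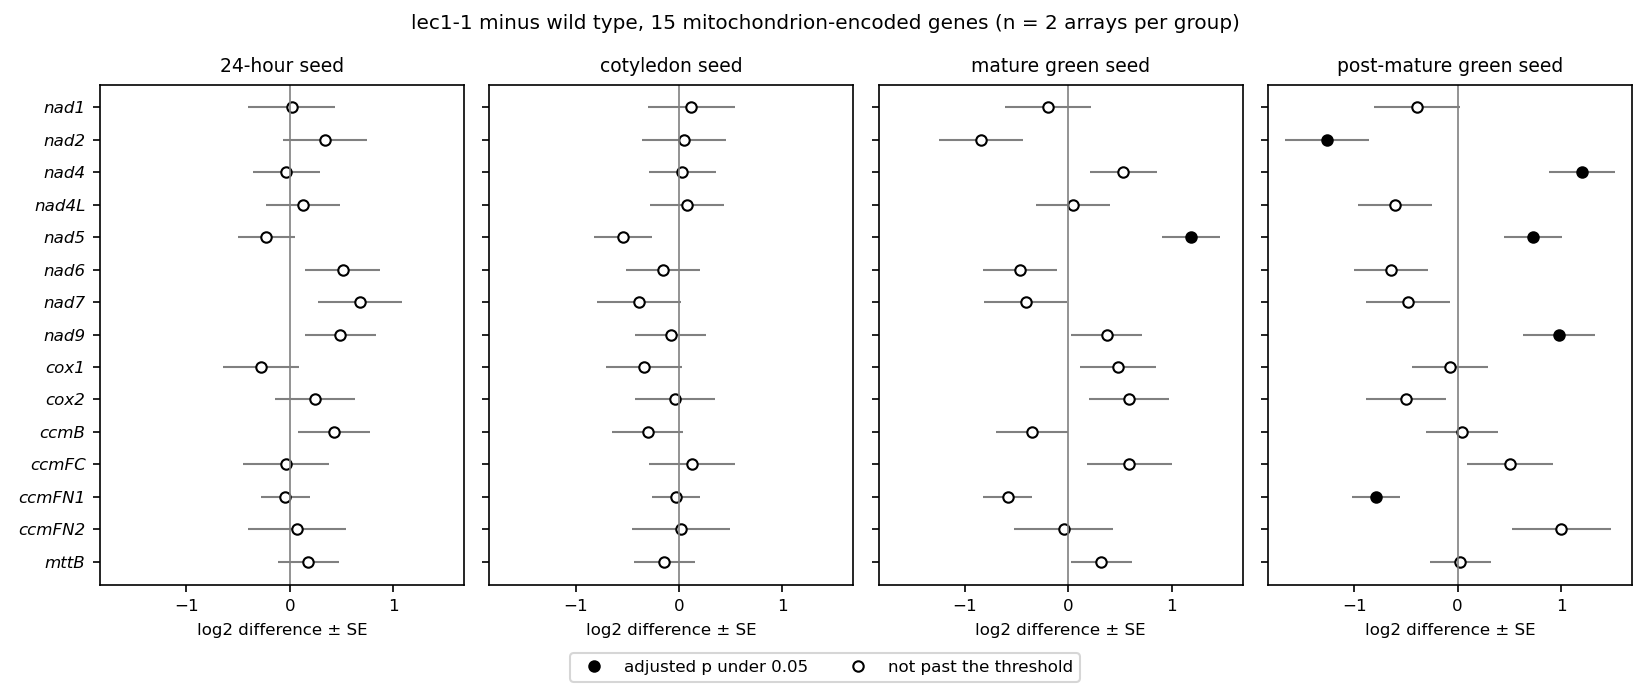
log2 difference of lec1-1 minus wild type with its standard error (n = 2 arrays per group) for 15 mitochondrion-encoded genes at 4 seed stages. Filled points have an adjusted p under 0.05 in limma. Points of the first 2 panels are all open, nad5 is filled in the third, and in the fourth nad4, nad5 and nad9 lie right of 0 and nad2 and ccmFN1 left of it.

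The change of the genotype difference over the 4 stages was tested jointly. It passed for 1 of 15 mitochondrial genes, nad5 (limma F test, adjusted p = 0.00499), where 36.7% of all probe sets passed, and for 46 of 69 plastid genes. The genotype difference of nad5 was -0.23 at 24 hours, -0.54 at the cotyledon stage, 1.19 at the mature green stage and 0.73 at the post-mature green stage. The step between the cotyledon and mature green stages was 1.73 ± 0.39 log2.

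For nad1 and nad5 there was more than 1 probe set each, and these did not always give the same call. The second nad5 probe set, the dimmer one, read 243.4 and 101.7 in lec1-1 against 181.6 and 101.2 in wild-type post-mature green seed, with a log2 difference of 0.17 ± 0.50 (adjusted p = 0.812, limma). At the mature green stage its difference was 0.34 (adjusted p = 0.663, limma). The signal of nad5 described above therefore stands for 1 of its 2 probe sets.

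The gene nad1, which encodes a membrane subunit of complex I, had 7 probe sets, 6 of them tested. Against post-mature green wild-type seed, seedlings were lower for 4 of the 6 and higher for 0. When probe sets that passed the filter only through post-mature green wild-type seed are left out, 2 were lower. Of all probe sets 32.5% were lower and 28.1% higher. By genotype at the post-mature green stage, 1 of the 6 was higher in lec1-1, where 23.7% of all probe sets were. One dim probe set read 422.7 and 145.9 in lec1-1 against 49 and 25.7 in wild type, at least 2.48-fold higher (adjusted p = 0.00705, limma). A second read 96.3 and 14.3 in lec1-1 against 131.8 and 208.1 in wild type. Another read 13.8 and 49.5 in lec1-1 against 145.3 and 128 in wild type. Both passed the filter only through post-mature green wild-type seed, so they had to be higher there and are given as values without a test. The brightest, which stands for nad1 elsewhere, read 192.0 and 82.7 against 183.6 and 187.3 and did not pass (-0.39 ± 0.42, adjusted p = 0.476, limma). Leaving out the probe sets bound to the filter, 1 nad1 probe set was called higher in lec1-1 at this stage and 0 lower. Whether the nad1 probe sets differ from each other was not tested.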

How the data were processed

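Per the labels, the authors computed the deposited ATH1 intensity with Affymetrix Microarray Suite 5.0 and a scaling target of 500. The labels of the globular arrays state no scaling, but their trimmed means matched (500.0 to 500.1 on all 20 arrays). Groups followed the sample titles. The annotation used here lists mitochondrial genes under other locus tags than ArthM, so probe sets were matched by mitochondrial symbol, leaving out plastid genes of the same symbol. Gene names came from TAIR10.1.

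Values were analysed as log2(signal + 50) with limma 3.58.1 in R 4.3.3 (lmFit, eBayes with trend), 1 model over 20 arrays, 10 residual and 8.64 prior degrees of freedom. Probe sets with a signal of 100 on at least 2 arrays entered (18459). Two-sided p-values were adjusted by Benjamini-Hochberg over all of these, at a threshold of 0.05. With 2 arrays per group, array number limits precision. If 1 group had both arrays under 100 and the other group none, the printed fold is a bound: the other group's geometric mean over 100. The code was tested on simulated data. Genes given in full were, per contrast, up to 3 passing genes each way by adjusted p, otherwise the largest each way; further genes were given by role. The second nad5, the nad1 and the shared probe sets were named after their values were seen. Members, lists and comparisons were chosen with earlier results of these data known.

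How cRNA synthesis was primed is not given in the sources used here. Plant mitochondrial RNAs are not stably polyadenylated, so priming on poly(A) would capture them in part; the effect was not tested. Over all tested probe sets the same-number replicates did not deviate together (correlation over 45 pairs of groups, -0.0855 to 0.184), so numbers were not taken as pairs. This check was not made for the mitochondrial genes alone. For them the first array was brighter for 13, 12 and 13 of 16 genes in globular, mature green and post-mature green lec1-1 seed. In the other groups it was brighter for 7 to 11.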

Additional observations from a re-analysis of the deposited data

Results flagged for a closer look

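The genotype difference of nad5 changed between stages by the joint test of the stage-by-genotype terms (limma F test, adjusted p = 0.00499), and it is set out here because the difference itself was tested. The lec1-1 minus wild-type value was -0.23 at 24 hours and -0.54 at the cotyledon stage, and 1.19 and 0.73 at the mature green and post-mature green stages. The adjusted p lay between 0.00227 and 0.235 over 24 alternatives, and 23 of them passed. The exception was the mean of both nad5 probe sets, at 0.235. Which of the probe sets follows the nad5 transcript was not tested.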

How the results depend on the processing

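The seedling comparisons kept their direction under every alternative run. Lower genes numbered 7 to 11 against the mean of seed stages and 10 to 11 against post-mature green seed when single arrays were left out, and 8 to 10 and 10 to 11 under the other 9 alternatives, with 0 higher throughout. The late against early comparison in wild type gave 7 to 8 and 8 higher genes in these same sets of alternatives. In lec1-1 it gave 3 to 4 with single arrays left out and 4 to 7 otherwise. Among the genes given in full, the only reversed sign was that of ccmFN2 between post-mature green and 24-hour wild-type seed, 0.36 without the second 24-hour array (adjusted p = 0.609, limma) and -0.95 without the first, and its values lie below the floor.

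Genotype calls depended on settings. The lot covariate among them records only whether a label states a lot. At the mature green stage the count was 0 with the lot as a covariate, with the mean of a gene's probe sets and with only the 2 groups of the contrast fitted, and 0 to 4 with single arrays left out. At the post-mature green stage it was 2 with an offset of 1, 3 with the lot as a covariate, 7 with a floor of 100 (3 higher and 4 lower), and 0 to 5 with single arrays left out. The joint test of the genotype difference gave 3 genes with a floor of 100, 2 with the replicate number as a block, 0 with the mean of probe sets, and 1 to 2 with single arrays left out. The median difference of the mitochondrial genes, 0.04 at the mature green and -0.07 at the post-mature green stage, also changed sign, over -0.14 to 0.30 and -0.32 to 0.04. The cause was not tested; with an array left out, the lone array of its group is assumed to vary like the other groups. Under the replicate block no other count moved by over 1.5 times. Counts at 24 hours and the cotyledon stage were 0 throughout.

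Scaling to the 75th percentile moved the median of all probe sets by over 0.1 in 2 comparisons, from -0.21 to -0.09 for seedlings against mean seed and from -0.02 to 0.10 for late against early wild-type seed. Signals below 100 limit nad2, nad7, ccmFN2 and matR most, and their log2 values depend on the offset.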
